A study of Mus musculus with 8 samples.

Results

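The growth hormone and IGF axis of the liver was read from 10 genes, taken by gene name: the receptor gene Ghr, the transcription factor genes Stat5a and Stat5b, the feedback inhibitor gene Socs2, the hormone gene Igf1, and the genes of its carriers, Igfals, Igfbp1, Igfbp2, Igfbp3 and Igfbp4. These are 10 of the 53816 gene IDs of the series, and all 10 were among the 13055 genes expressed highly enough to be tested (average over the 8 libraries of 1 TPM or more, TPM being a level scaled for transcript length and for the total of each library). RNA-seq had been done on the livers of 4 mice labelled as overexpressing Myc in liver sinusoidal endothelial cells and of 4 wild-type control mice. Every mouse of both groups had undergone bile duct ligation, the surgical block of bile flow that is used as a model of cholestatic liver injury. The promoter or Cre line behind the overexpression, the time after surgery and the animals' sex, age and strain are not stated in those labels, nor is it stated that each library came from 1 separate mouse, so p-values measure the spread between these libraries.

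Growth hormone from the pituitary binds its receptor on hepatocytes, which activates the kinase JAK2 and through it STAT5. STAT5 drives transcription of Igf1, the liver's endocrine growth factor, of Igfals, and of inhibitors such as Socs2 that close the loop. Secreted IGF1 circulates bound to IGF binding proteins, mostly in a ternary complex of IGFBP3 and the acid-labile subunit encoded by Igfals, while IGFBP1 is the acutely regulated carrier, repressed by insulin and induced by fasting and stress. Inflammation and liver disease are known to make the liver resistant to growth hormone.

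None of the 10 genes differed between the groups beyond the spread of the libraries, and the values of the 2 groups overlapped for each of the 10. In limma with Benjamini-Hochberg adjustment over all genes tested, 0 of 10 passed an adjusted p of 0.05 (0% of all genes tested did), 0 of 10 had an unadjusted p under 0.05 (1.86% of all genes), and 0 of 10 had groups that did not overlap (1.26% of all genes). The adjusted p was 1.0 for each of the 10. Of the differences, 4 were positive and 6 negative, with a median of -0.09 on the log2(TPM + 1) scale, beside a median of 0.04 over all genes tested, of which 58.0% were positive. Variation from liver to liver was large in some of the genes, most of all in Igfbp1, Socs2 and Igfbp3. By coefficient of variation over the 8 libraries, 6 of the 10 lay above the median of all genes tested. A few patterns of co-variation are set out below. Each log2 difference is Myc-labelled minus control on the log2(TPM + 1) scale, where the pseudocount shrinks differences of low genes, and is followed by its standard error (SE). In these whole-tissue samples fewer cells of a type and less RNA per cell cannot be told apart.

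**Figure D1:**
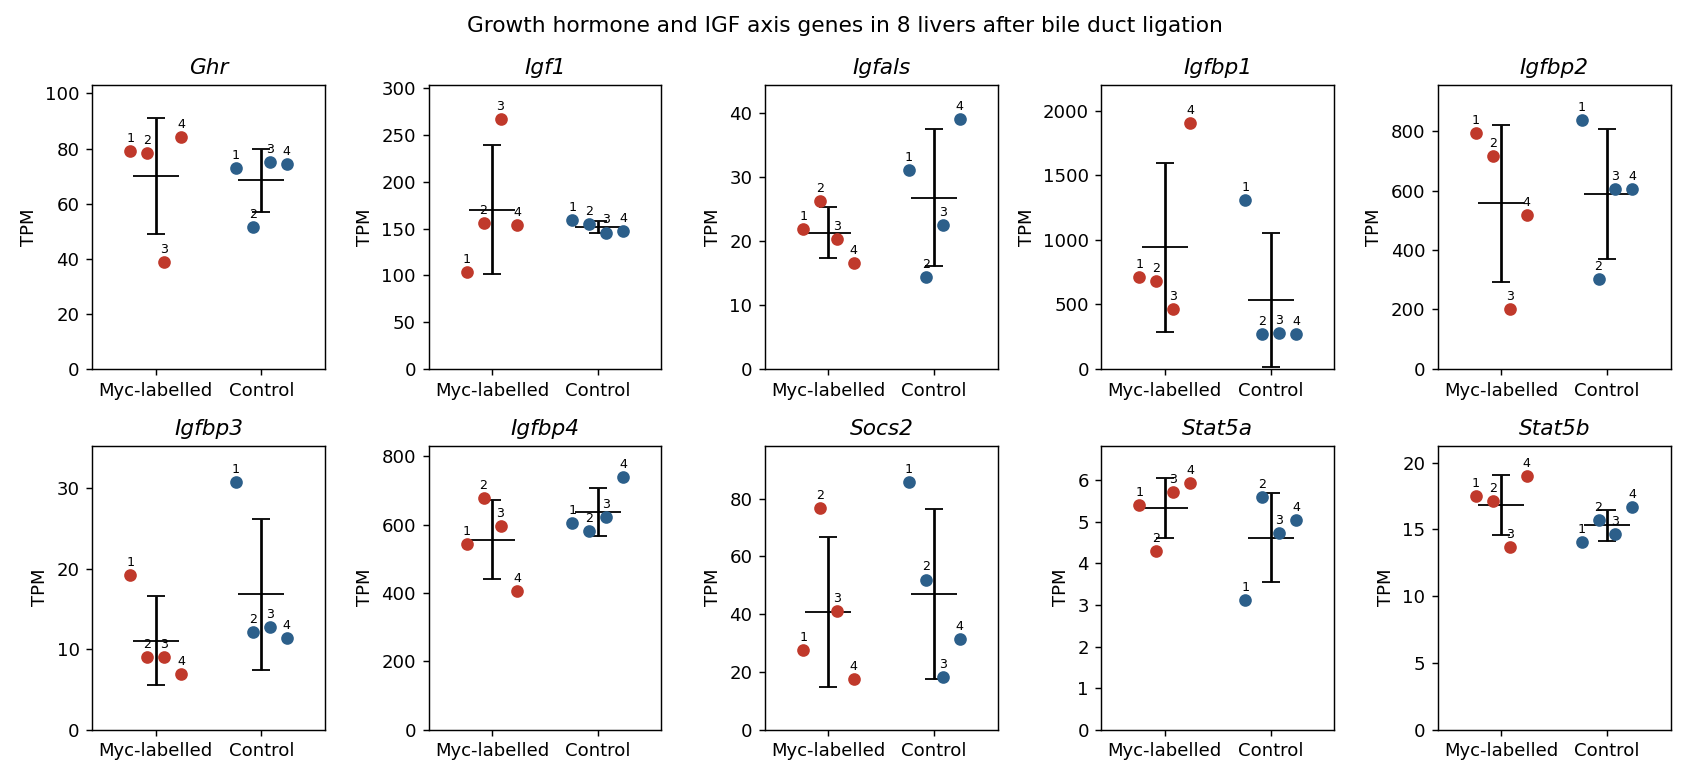
TPM of the 10 genes in each library, on linear axes from 0, with the 4 Myc-labelled libraries left of the 4 control libraries in each panel, 1 point per library with its replicate number, and the group mean ± SD as a horizontal line with an error bar. The groups overlap in every panel, and the control values of Igf1 lie within 146 to 159 TPM while those of Igfbp1 run from 268 to 1307 TPM.

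Several properties of the libraries bear on every value below. The libraries held 5.29 to 6.74 Gb of aligned bases each, as worked out from the deposited coverage and FPKM, and Pearson correlations of log2(TPM + 1) between libraries lay between 0.9355 and 0.9757. Myc itself did not follow the labels: it stood at 339, 356, 25.6 and 249 TPM in Myc-labelled replicates 1 to 4 and at 272, 207, 554 and 89.2 TPM in control replicates 1 to 4 (log2 difference -0.45, SE 0.95, limma adjusted p = 1.0). The libraries of that label are therefore called Myc-labelled, and every direction rests on the label. Whole-liver Myc does not separate sinusoidal endothelial cells from other cells, so it cannot show whether Myc was raised in them. Whether a transgene would be counted under Myc was not tested. Xist, the RNA that silences one X chromosome in female cells, stood at 43.3, 33.6, 0.0574 and 0.0454 TPM in Myc-labelled replicates 1 to 4 and at 32.8, 41.0, 0.0543 and 35.2 TPM in control replicates 1 to 4. Thus 2 of 4 Myc-labelled libraries and 1 of 4 control libraries were near 0, and growth hormone signalling is a pathway that differs between the sexes in mouse liver. Each log2 difference of the 10 genes was also computed with Xist as a covariate.

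Ghr (ENSMUSG00000055737.12, chromosome 15, 3317760 to 3583492, minus strand, mm10) encodes the growth hormone receptor, through which all hepatic growth hormone signalling passes. Its level was 78.9, 78.3, 38.6 and 84.2 TPM in Myc-labelled replicates 1 to 4, against 73.1, 51.5, 75.0 and 74.5 TPM in control replicates 1 to 4. In each group 3 livers lay close together and 1 stood apart below them, Myc-labelled replicate 3 and control replicate 2. The means were 70.02 ± 21.1 TPM in Myc-labelled livers and 68.5 ± 11.4 TPM in control livers (SD, n = 4 each). The log2 difference was -0.01 (SE 0.26), with a 95% interval of -0.58 to 0.55. Without Myc-labelled replicate 3 it was 0.24, and it was also just above 0 without control replicate 1, 3 or 4, so the data give it no sign.

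The 2 STAT5 proteins, which dimerize and enter the nucleus after phosphorylation by JAK2, are encoded by neighbours on chromosome 11 that lie 8626 bases apart. Stat5b (ENSMUSG00000020919.11, 100780731 to 100850724, minus strand), the main hepatic form, was measured at 17.5, 17.1, 13.7 and 19.0 TPM in Myc-labelled livers and at 14.1, 15.7, 14.7 and 16.7 TPM in control livers. It was the steadiest of the 10 genes, with a coefficient of variation over the 8 libraries of 11.5%, beside a median of 23.4% over all genes tested. Its log2 difference was 0.12 (SE 0.15), with a 95% interval of -0.21 to 0.46. Stat5a (ENSMUSG00000004043.14, 100859351 to 100885169, plus strand), the form best known from the mammary gland, was the lowest of the 10 genes, at 5.40, 4.29, 5.72 and 5.92 TPM in Myc-labelled livers and 3.11, 5.59, 4.73 and 5.04 TPM in control livers. The lowest value was that of control replicate 1, the other controls lay within the range of the Myc-labelled livers, and the log2 difference was 0.19 (SE 0.20), or 0.04 without that library. Stat5a overlaps Stat3 on the opposite strand, and no source used here gives the read strand, so reads of the 2 genes may not be fully separated.

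Socs2 (ENSMUSG00000020027.18, chromosome 10, 95385362 to 95417180, minus strand) encodes the suppressor of cytokine signalling that STAT5 induces and that in turn limits growth hormone receptor signalling. It was measured at 27.6, 77.0, 40.9 and 17.6 TPM in Myc-labelled livers, against 85.9, 52.0, 18.4 and 31.6 TPM in control livers. High and low livers occurred in both groups, with a 4.37-fold range among the Myc-labelled livers and a 4.68-fold range among the controls. The log2 difference was -0.19 (SE 0.55) and its 95% interval of -1.44 to 1.07 covers a doubling in either direction. Its sign was positive with Xist as a covariate, at 0.06, and without control replicate 1, at 0.17. Socs2 varied more between libraries than 93.0% of the genes tested. Cish, the other STAT5-induced inhibitor of this family, was not among the genes that the fixed rule names; it is given here because it has the same role. It stood at 19.7, 26.4, 18.0 and 7.15 TPM in Myc-labelled livers and 13.9, 22.4, 12.7 and 19.4 TPM in control livers. The lowest liver for both inhibitors was Myc-labelled replicate 4. Control replicate 1, the highest liver for Socs2, was among the lower ones for Cish, at 13.9 TPM.

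Igf1 (ENSMUSG00000020053.18, chromosome 10, 87858265 to 87937042, plus strand) encodes insulin-like growth factor 1, the hormone of the axis. Its level was 104, 156, 268 and 153 TPM in Myc-labelled livers, against 159, 155, 146 and 147 TPM in control livers, which were almost identical to each other. Myc-labelled replicates 2 and 4 lay within or near the control range, replicate 1 below it and replicate 3 above it. The means were 170 ± 69.3 TPM in Myc-labelled livers and 152 ± 6.25 TPM in control livers (SD, n = 4 each). The spread was thus 2.58-fold in the Myc-labelled group and 1.09-fold in the control group, and the difference in spread was not tested. The log2 difference was 0.08 (SE 0.25), with a 95% interval of -0.47 to 0.64, and without Myc-labelled replicate 3 it was -0.16. Igf1 overlaps the opposite-strand gene Igf1os, with the same limit on strand.

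The acid-labile subunit and IGFBP3 complete the circulating complex with IGF1. Igfals (ENSMUSG00000046070.9, chromosome 17, 24865997 to 24882010, plus strand) was measured at 21.9, 26.3, 20.3 and 16.6 TPM in Myc-labelled livers and at 31.1, 14.4, 22.5 and 39.2 TPM in control livers. The control livers held both the highest and the lowest value, and the log2 difference was -0.25 (SE 0.27), with a 95% interval of -0.85 to 0.35. It was -0.50 without control replicate 2 and -0.04 without control replicate 4, the lowest and the highest liver. Igfbp3 (ENSMUSG00000020427.11, chromosome 11, 7206086 to 7213923, minus strand), which in the liver is made mainly outside hepatocytes, stood at 19.2, 9.07, 9.07 and 6.97 TPM in Myc-labelled livers and at 30.8, 12.2, 12.8 and 11.4 TPM in control livers. Replicate 1 was the highest of its group in both, and 3 of 4 Myc-labelled livers lay below the lowest control. The log2 difference was -0.54 (SE 0.36), with a 95% interval of -1.33 to 0.26 and the lowest of the 10. Without control replicate 1 it was -0.22, and without Myc-labelled replicate 1 it was -0.82.

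A promoter window of Igfals is shown for the core letters of a STAT5 element, TTCNNNGAA. Of the 9 genes with a window, Igfals alone held these letters. Promoter windows from RefSeq (build GRCm38.p6, from 250 bases before to 50 bases after a start site) were matched by symbol for 9 of the 10 genes, all but Socs2, in 15 windows. The motif was searched on both strands. It occurs in 2 of the 15 windows, both of Igfals, and in 8.30% of 32851 windows of the same length. Of the Igfals windows with a match, the one whose match lies nearer the start is shown. It lies at chr17:24877981-24878280 on the plus strand, with the match, in capitals, beginning 58 bases before the start. A match is a description of letters and not a binding site.
Igfals: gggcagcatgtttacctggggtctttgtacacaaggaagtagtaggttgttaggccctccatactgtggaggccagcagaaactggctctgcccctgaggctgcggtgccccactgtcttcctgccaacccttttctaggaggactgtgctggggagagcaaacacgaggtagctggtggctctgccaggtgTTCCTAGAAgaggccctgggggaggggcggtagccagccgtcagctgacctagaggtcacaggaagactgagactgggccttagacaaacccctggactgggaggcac

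Igfbp1 (ENSMUSG00000020429.7, chromosome 11, 7197782 to 7202546, plus strand) encodes the insulin-repressed binding protein that limits free IGF1 from hour to hour, and it lies 3539 bases from Igfbp3. It had the largest difference and the largest variation of the 10 genes. Its level was 715, 681, 462 and 1904 TPM in Myc-labelled livers, against 1307, 268, 278 and 273 TPM in control livers. All 4 Myc-labelled livers lay above 3 of the 4 controls, which were close together, while control replicate 1 exceeded 3 of the 4 Myc-labelled livers. The means were 940.5 ± 652 TPM in Myc-labelled livers and 532 ± 517 TPM in control livers (SD, n = 4 each). The log2 difference was 1.0 (SE 0.61), with a 95% interval of -0.38 to 2.38 and a limma adjusted p of 1.0. Single libraries set much of that value, in both directions. Without control replicate 1, the control far above the others, the log2 difference was 1.56, with an unadjusted limma p of 0.0044 and an adjusted p of 1.0. Without Myc-labelled replicate 4 it was 0.59, with an unadjusted limma p of 0.32. With any library other than control replicate 1 left out, the unadjusted limma p was 0.097 or more. Over the 8 libraries Igfbp1 varied more than 97.1% of the genes tested.

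**Figure D2:**
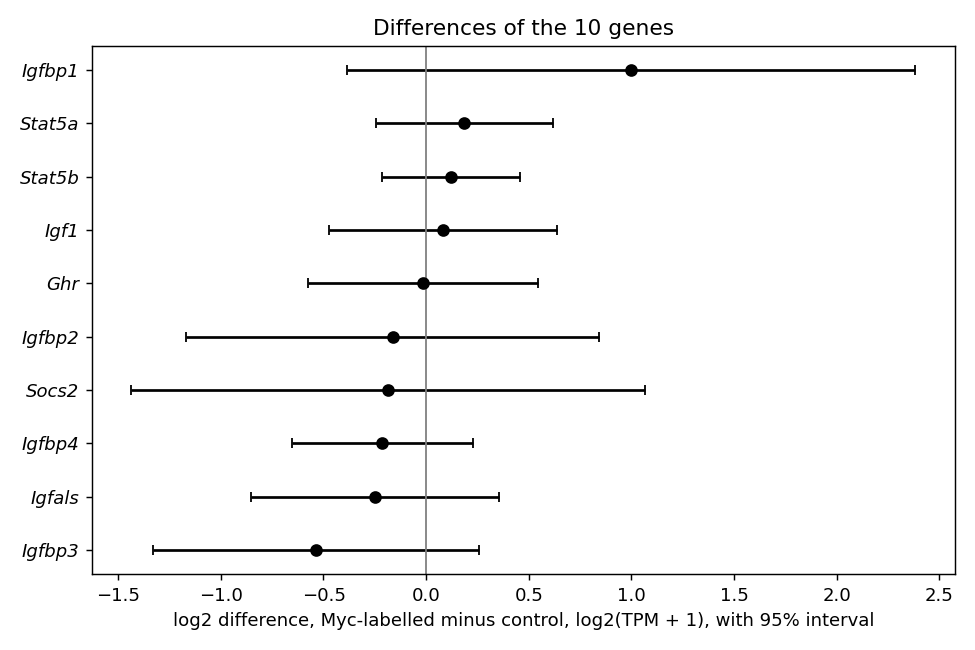
Log2 difference (Myc-labelled minus control, log2(TPM + 1)) of each of the 10 genes with its 95% interval from limma, ordered from the highest to the lowest. Every interval crosses 0, from 1.0 for Igfbp1 at the top to -0.54 for Igfbp3 at the bottom.

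By TPM, Igfbp2 and Igfbp4 were the other abundant genes of the 4 binding proteins. Igfbp2 (ENSMUSG00000039323.18, chromosome 1, 72824503 to 72852474, plus strand), a carrier that growth hormone and insulin lower, stood at 793, 716, 201 and 519 TPM in Myc-labelled livers and at 837, 303, 605 and 605 TPM in control livers. The lowest liver was Myc-labelled replicate 3, and the second lowest was control replicate 2, the same 2 livers that were low for Ghr. Its log2 difference was -0.16 (SE 0.45), and without Myc-labelled replicate 3 it was 0.27. Igfbp4 (ENSMUSG00000017493.12, chromosome 11, 99041244 to 99054392, plus strand), an inhibitory carrier that is cleaved by the protease PAPP-A, was measured at 543, 679, 597 and 404 TPM in Myc-labelled livers and at 603, 582, 622 and 739 TPM in control livers. Its coefficient of variation was 16.5%, and its log2 difference was -0.21 (SE 0.20), with a 95% interval of -0.65 to 0.23. Without Myc-labelled replicate 4, the lowest liver, it was -0.07, and without control replicate 4, the highest, -0.14.

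Because IGF1 is shared out among its carriers, the 4 binding protein genes were also set beside each other within each liver. Igfbp1 made up 34.5%, 32.6%, 36.4% and 67.2% of their summed TPM in Myc-labelled livers, against 47.0%, 23.0%, 18.3% and 16.8% in control livers. The means were 42.7 ± 16.4% in Myc-labelled livers and 26.3 ± 14.1% in control livers (SD, n = 4 each), and the groups overlapped through control replicate 1. Igf1 amounted to 5.0, 7.49, 21.1 and 5.42 TPM per 100 TPM of the 4 genes in Myc-labelled livers and to 5.72, 13.3, 9.61 and 9.05 in control livers. Only Myc-labelled replicate 3, where Igf1 was highest and Igfbp2 lowest, stood above 20.

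**Figure D3:**
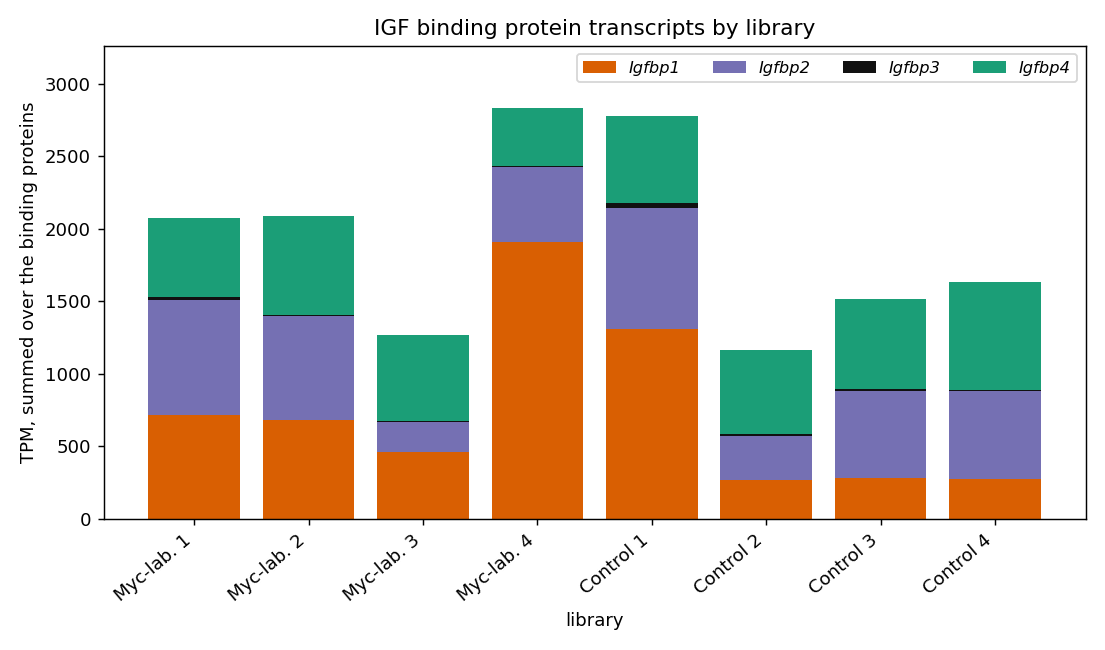
Stacked TPM of Igfbp1, Igfbp2, Igfbp3 and Igfbp4 in each library, from 0, with the 4 Myc-labelled libraries left of the 4 control libraries. The part of Igfbp1 is 67.2% of the bar in Myc-labelled replicate 4 and 16.8% in control replicate 4, and that of Igfbp3 is at most 1.11% in any library.

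Levels of different genes have to be read with care in these files. For genes with 1 transcript the deposited coverage and FPKM stood in 1 ratio within a library (100% of 894 such genes within 1%), but for genes with several transcripts coverage fell short of that ratio, with a median of 55.3% over 6766 genes. Coverage was 100% of the expected value for Igfbp1, 91.7% for Stat5b, 77.1% for Igfbp3, 53.0% for Igfals, 38.4% for Igfbp4, 28.6% for Igf1, 9.07% for Socs2, 6.67% for Ghr and 5.20% for Igfbp2. Over the 8 libraries TPM ranked Igfbp1 highest, at a mean of 736 TPM, followed by Igfbp4 at 596 TPM and Igfbp2 at 572 TPM, 3 genes whose ranges overlap widely. On the coverage scale the share of Igfbp1 among the 4 binding protein genes was 74.6% in Myc-labelled livers and 57.2% in control livers. The share of Igfbp2 was 2.69% in Myc-labelled and 4.17% in control livers by coverage, against 26.7% and 33.3% by TPM. The balance between genes thus depends on the unit. Comparisons of 1 gene between libraries are less exposed, though not equally for each gene. Over the libraries coverage stayed within 5.18% to 5.21% of the expected value for Igfbp2. It ran from 5.51% to 7.01% for Ghr, from 7.47% to 9.76% for Socs2 and from 26.1% to 33.1% for Igf1.

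The genes were then compared with each other over the 8 livers, with Pearson r and Spearman rho of log2(TPM + 1) and exact two-sided permutation tests. Of the 45 pairs, 24 had a positive and 21 a negative r, and 0 passed an adjusted p of 0.05 for either measure (smallest adjusted p 0.449 for r and 0.326 for rho by the exact permutation test). The largest r was that of Ghr with Igfbp2, at 0.91 (exact permutation p = 0.0149, adjusted p = 0.449), with a rho of 0.38. It rested on Myc-labelled replicate 3 and control replicate 2, the 2 livers low for both genes, and was -0.49 without them. Receptor and hormone ran opposite to each other: Ghr and Igf1 had an r of -0.78 (exact permutation p = 0.0315, adjusted p = 0.449) and a rho of -0.62, and r was -0.17 without the same 2 livers. Igf1 and Igfbp2 likewise had an r of -0.77 (exact permutation p = 0.0270, adjusted p = 0.449) that became 0.10 without Myc-labelled replicates 3 and 1.

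For the receptor and the main hepatic STAT5 gene the result depended on the measure and the scaling. Ghr and Stat5b had a rho of 0.88 (exact permutation p = 0.00724, adjusted p = 0.326) and an r of 0.64 (exact permutation p = 0.0937, adjusted p = 0.477), and r was 0.89 without the 2 livers farthest out in Ghr, 0.18 after median-of-ratios scaling, and 0.41 without Myc-labelled replicate 3. Igfals and Igfbp4 had an r of 0.68 (exact permutation p = 0.0599, adjusted p = 0.449), with a rho of 0.81, and r was 0.75 without control replicates 4 and 2. At the other end, Igfbp3 and Stat5a had an r of -0.71, with a rho of -0.52 (exact permutation p = 0.0551 for r, adjusted p = 0.449), which became 0.26 without control replicate 1 and Myc-labelled replicate 4.

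Pairs that are linked by STAT5 or by the ternary complex showed no common movement that passed the test. Igf1 and Igfals, both STAT5 targets, had an r of -0.11 and a rho of -0.05. Igf1 and Igfbp3 had an r of -0.37 and a rho of -0.24, and Igfals and Igfbp3 an r of 0.38 and a rho of 0.29. Igf1 and Socs2 had an r of 0.24 and a rho of 0.69, with an r of 0.76 without Myc-labelled replicates 3 and 1, and Ghr and Socs2 an r of -0.24 and a rho of -0.57. Exact permutation p-values of these 5 pairs, adjusted over the 45, were 0.679 or more for r and 0.446 or more for rho. The insulin-sensitive Igfbp1 stood apart from Igf1, with an r of -0.09 and a rho of 0.10, and its r with Igfbp2 was 0.36, with a rho of 0.43. Stat5a and Stat5b had an r of 0.40 and a rho of 0.26. On residuals after Xist, Igf1 with Socs2 had an r of 0.80 and Igf1 with Igfals an r of 0.10, while no r was computed within the libraries of high or of low Xist, since each set holds under 6 libraries.

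**Figure D4:**
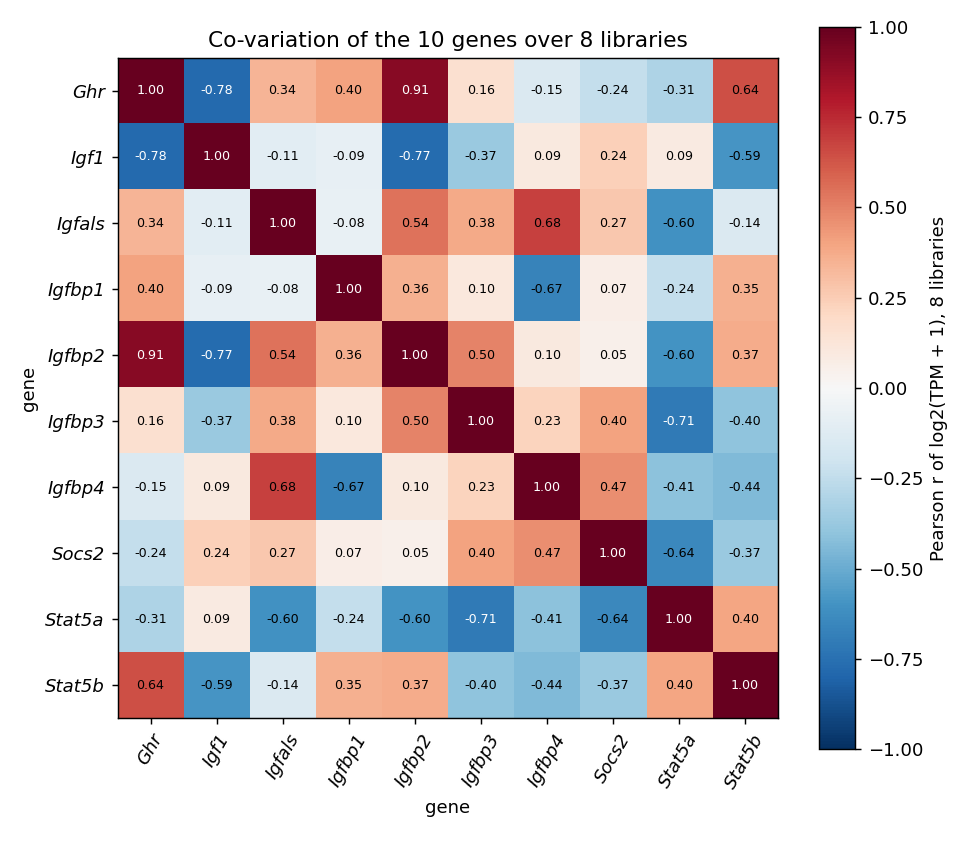
Pearson r of log2(TPM + 1) over the 8 libraries for each pair of the 10 genes, red for positive and blue for negative values. The strongest cells are Ghr with Igfbp2, at 0.91, and Ghr and Igfbp2 with Igf1, at -0.78 and -0.77, and none of the 45 pairs passed an adjusted p of 0.05.

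Genes with profiles most like those of Igf1, Igfbp1 and Socs2 were sought among 6226 genes that averaged 10 TPM or more, by Pearson r over the 8 libraries, given as a description without a test. The profiles nearest to Igf1 were those of Ldhd, a mitochondrial D-lactate dehydrogenase, with an r of 0.91, and of Mup1, Mup17, Mup15 and Mup16, genes of major urinary proteins, the pheromone carriers made by the liver, with r between 0.85 and 0.89. Mup1 stood at 1.42, 21.2, 1183 and 74.9 TPM in Myc-labelled livers and at 21.8, 10.1, 60.5 and 80.8 TPM in control livers. Its lowest and highest livers, Myc-labelled replicates 1 and 3, were those of Igf1. These livers weigh heavily in each r with Igf1, and no r without them is given. In the narrow control group Igf1 stood at 159, 155, 146 and 147 TPM. There replicates 3 and 4 had the most Mup1 and the least Igf1. Mup genes are near-identical copies that can share reads, so their single values are uncertain. The most opposite profiles were those of Slc35d1, a nucleotide sugar transporter of the endoplasmic reticulum, with an r of -0.99, Ppp1ca, a catalytic subunit of protein phosphatase 1, with -0.98, and Chtop, with -0.97. Slc35d1 stood at 89.0, 66.5, 50.5 and 67.1 TPM in Myc-labelled livers and at 69.7, 69.2, 71.5 and 72.4 TPM in control livers, and so shared with Igf1 the near-constant control group.

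For Socs2 the nearest profiles were those of Zfp771, Vamp8, Mif4gd, Pigf and Gfer, with r between 0.91 and 0.92, and the most opposite ones those of Tspan9, Lasp1 and Pigt, with r between -0.95 and -0.94. Vamp8, a SNARE protein of vesicle fusion, stood at 182, 221, 171 and 165 TPM in Myc-labelled livers and at 237, 214, 156 and 191 TPM in control livers. These genes follow the order of Socs2 over a much smaller range, since Socs2 had a 4.88-fold range and Vamp8 a 1.52-fold range.

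Igfbp1 was matched by Snrpf and Magoh, which encode a spliceosomal Sm protein and a core protein of the exon junction complex, at r of 0.97 and 0.96, by Sap18b at 0.95, by G6pc at 0.94 and by Caml at 0.94. Opposite profiles were those of Rassf7, with an r of -0.96, and Sec14l4, with -0.95. Of these 7 genes only G6pc, the catalytic subunit of glucose-6-phosphatase that releases glucose from the liver in fasting, had a range as wide as that of Igfbp1, with a 7.11-fold range for Igfbp1 and a 9.87-fold range for G6pc. G6pc stood at 175, 146, 38.3 and 259 TPM in Myc-labelled livers and at 200.04, 31.3, 35.1 and 26.2 TPM in control livers. The 2 genes ranked the livers almost alike, with a rho of 0.98, and the highest liver of each group was the same for both, Myc-labelled replicate 4 and control replicate 1. Without these 2 livers r was 0.93, within groups it was 0.92, and with any 1 liver left out it lay between 0.93 and 0.96. G6pc was chosen here for its likeness, so no p is given. Like Igfbp1, its log2 difference did not pass the test, at 1.34 (SE 0.81, limma adjusted p = 1.0).

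**Figure D5:**
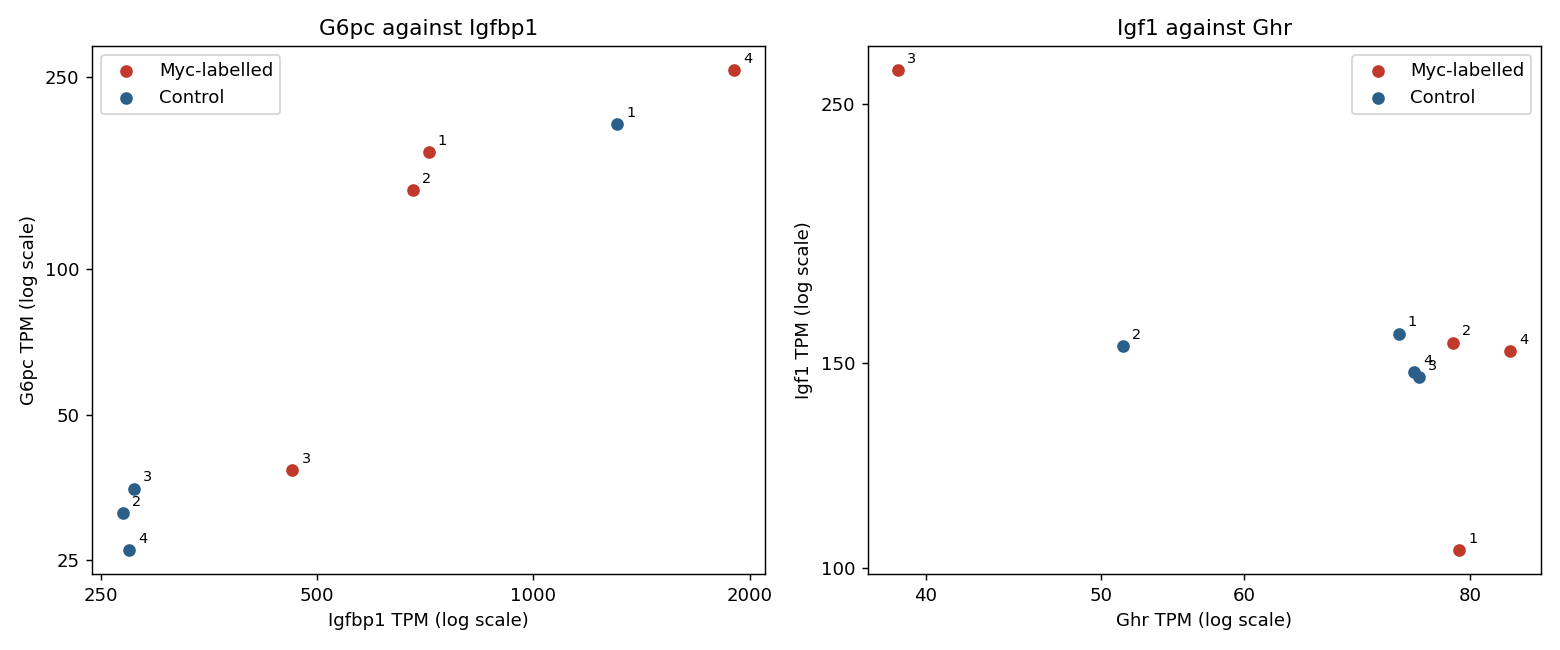
TPM of G6pc against Igfbp1 (left) and of Igf1 against Ghr (right) in each library on log scales, with Myc-labelled libraries in red and control libraries in blue and the replicate number beside each point. On the left the Myc-labelled libraries rise together in both genes. The controls lie close together at 268 to 278 TPM of Igfbp1, except replicate 1 at 1307 TPM. On the right the negative slope comes from Myc-labelled replicate 3 at 38.6 TPM of Ghr and 268 TPM of Igf1.

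The promoter windows of Igfbp1 and G6pc are shown because both genes are textbook targets of insulin repression and moved together here. Each window was searched on both strands for the letters CAAAANA, with N any base, a loose form of the core of the insulin response sequence. Both windows hold 2 matches, as do 3.14% of the 32851 windows with 2 or more, and 18.6% hold at least 1. Of the 9 axis genes with a window, Igfbp1 alone had this motif. In Igfbp1, at chr11:7197537-7197836, plus strand, the matches begin 108 and 97 bases before the start. In G6pc, at chr11:101367466-101367765, plus strand, they begin 174 and 83 bases before it. Capitals mark the matches, with reverse matches printed as they read on the plus strand.
Igfbp1: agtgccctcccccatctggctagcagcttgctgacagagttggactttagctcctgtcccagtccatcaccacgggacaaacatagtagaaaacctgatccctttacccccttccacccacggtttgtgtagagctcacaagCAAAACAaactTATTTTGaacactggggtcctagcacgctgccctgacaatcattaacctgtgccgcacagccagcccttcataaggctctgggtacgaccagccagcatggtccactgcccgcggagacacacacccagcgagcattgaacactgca
G6pc: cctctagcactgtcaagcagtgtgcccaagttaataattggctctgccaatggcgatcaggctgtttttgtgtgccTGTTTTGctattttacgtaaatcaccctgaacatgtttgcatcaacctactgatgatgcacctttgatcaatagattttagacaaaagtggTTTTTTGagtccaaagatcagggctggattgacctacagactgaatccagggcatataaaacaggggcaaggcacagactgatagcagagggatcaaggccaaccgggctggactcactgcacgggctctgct

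The list of 10 insulin and fasting genes, to which G6pc belongs, showed no call. Of the 10, all tested, 7 had positive and 3 negative differences, with a median of 0.06, and 0 passed the adjusted or unadjusted threshold. Pck1, the other gatekeeper of gluconeogenesis, stood at 2144, 2684, 2893 and 2125 TPM in Myc-labelled livers and at 3236, 1503, 2246 and 3193 TPM in control livers. Like Igfbp1 and G6pc it was highest among the controls in replicate 1, but control replicate 4 was nearly as high, and among the Myc-labelled livers replicate 4 was its lowest. Tat, a glucocorticoid-induced aminotransferase, had a log2 difference of -0.10 and Angptl4, a lipase inhibitor induced by fasting, one of -0.32, neither past the threshold.

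The remaining genes of the pathway, 35 in number and covering receptors, kinases, phosphatases, adaptors and further binding proteins, showed no call either. Of 28 tested, 18 had positive and 10 negative differences, with a median of 0.05, and 0 passed the adjusted threshold. An unadjusted limma p under 0.05 was found for 1 of the 28, beside 1.86% of all genes tested. That gene was Igfbp5, a binding protein of matrix and mesenchymal cells, at 7.74, 4.98, 3.68 and 2.90 TPM in Myc-labelled livers and 7.21, 6.29, 9.30 and 10.6 TPM in control livers. Its log2 difference was -0.73 (SE 0.26), with an unadjusted limma p of 0.0168 and an adjusted p of 1.0. In this gene 3 of 4 Myc-labelled livers lay below every control. Foxo3, a transcription factor that insulin excludes from the nucleus, had a log2 difference of -0.33. The most abundant were Igfbp7 at 85.9 to 232 TPM in Myc-labelled and 84.8 to 189 TPM in control livers, Stat3, the interleukin-6 transducer, at 71.1 to 93.1 TPM in Myc-labelled and 43.6 to 136 TPM in control livers, and the kinase gene Akt1 at 58.3 to 64.9 TPM in Myc-labelled and 49.6 to 71.2 TPM in control livers.

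Sex-biased genes, whose expression follows the sex-specific rhythm of growth hormone release, are given here beside Xist. The female-biased list (19 genes, 17 tested) summed to 2165, 1830, 156 and 68.0 TPM in Myc-labelled livers and to 1678, 1661, 256 and 1436 TPM in control livers, so the 3 livers near 0 for Xist were the 3 lowest. Of the 17, 2 had positive and 15 negative differences, with a median of -0.51, 0 passed the adjusted or unadjusted threshold, and with Xist as a covariate the median was -0.10. Sult2a2, a sulfotransferase of bile acids and steroids, stood at 684, 422, 0 and 0 TPM in Myc-labelled livers and at 229, 428, 0.497 and 229 TPM in control livers. Its log2 difference was -1.72 although its mean was higher in Myc-labelled livers (276 TPM) than in control livers (222 TPM), because 2 Myc-labelled livers are listed at 0. The related Sult2a1 had a log2 difference of -1.10, likewise with the higher mean in Myc-labelled livers (204 TPM, against 138 TPM in control livers), Cyp3a16 one of -1.59, and Cyp17a1 one of -0.91. The sulfotransferase genes and Cyp3a16 belong to families of near-identical copies that can share reads.

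The male-biased list (16 genes, 14 tested) summed to 2124, 2148, 4410 and 5441 TPM in Myc-labelled livers and to 3213, 1597, 3137 and 2453 TPM in control livers. Here 12 differences were positive and 2 negative, with a median of 0.15, and of -0.07 with Xist as a covariate, and 0 passed either threshold. Gstp1, a glutathione transferase, had a log2 difference of 0.30, Mup20, a male urinary protein, one of 0.49, Cyp2d9 one of -0.10 and Selenbp2 one of -0.88. For each of the 10 axis genes the livers near 0 for Xist overlapped the other livers. Socs2, for one, stood at 40.9 and 17.6 TPM in the Myc-labelled livers near 0 for Xist and at 18.4 TPM in the control liver near 0 for Xist, and at 27.6 and 77.0 TPM in the other Myc-labelled livers and 85.9, 52.0 and 31.6 TPM in the other control livers.

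Marker lists gave the cell content beside these values. Hepatocyte markers were abundant in every library, with Alb at 42693 to 73217 TPM in Myc-labelled livers and 41497 to 95736 TPM in control livers, as liver tissue requires, and 11 of 12 had negative differences (median -0.11). Kupffer cell markers had negative differences in 10 of 10 (summed 664 to 1243 TPM in Myc-labelled and 864 to 1779 TPM in control livers) and endothelial markers in 9 of 10 (99.3 to 188 TPM in Myc-labelled and 140 to 229 TPM in control livers). Positive differences were found for 8 of 10 stellate and fibroblast markers (237 to 677 TPM in Myc-labelled and 182 to 372 TPM in control livers), 7 of 7 cholangiocyte markers tested (120 to 973 TPM in Myc-labelled and 103 to 325 TPM in control livers), 7 of 7 neutrophil markers tested (26.8 to 160 TPM in Myc-labelled and 14.5 to 70.2 TPM in control livers) and 6 of 6 blood cell markers tested (752 to 1603 TPM in Myc-labelled and 358 to 1781 TPM in control livers). In each list 0 markers passed the adjusted threshold and 0 were at 0 in all libraries. An unadjusted limma p under 0.05 was found for 2 of 7 neutrophil, 1 of 12 hepatocyte and 1 of 10 endothelial markers, beside 1.86% of all genes tested. The groups overlapped for 6 of the 7 neutrophil markers but not for Mmp9, at 1.45 to 6.77 TPM in Myc-labelled and 0.936 to 1.34 TPM in control livers. Of all genes tested, 1.26% had groups that did not overlap. Myc-labelled replicate 4, the liver with the highest Igfbp1, had the highest neutrophil sum. It also had the highest cholangiocyte sum, at 973 TPM, but Spp1 alone gave 939 TPM of it. By the mean of the markers' centred log2 levels, the cholangiocyte list was highest in Myc-labelled replicate 1, at 0.66, against 0.41 in Myc-labelled replicate 4. Myc-labelled replicate 3, the liver apart in Ghr, Igf1 and Igfbp2, had the lowest Kupffer cell sum and the lowest Myc.

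Each of the 10 genes was also correlated over the 8 livers with the mean centred log2 level of the hepatocyte, stellate, endothelial, Kupffer cell and neutrophil lists and with Myc, 60 relations in all, by exact two-sided permutation tests. None passed an adjusted p of 0.05 (smallest adjusted p 0.301 for r and 0.274 for rho by the exact permutation test). Igfbp4 went with the hepatocyte markers, with an r of 0.86 and a rho of 0.79 (exact permutation p = 0.00501 for r, adjusted p = 0.301), and r was 0.61 without Myc-labelled replicates 4 and 2. Stat5b went with the neutrophil markers, with an r and a rho of 0.83 (exact permutation p = 0.0107 for r, adjusted p = 0.321), and r was 0.73 without Myc-labelled replicate 4 and control replicate 3. For Stat5a and the hepatocyte markers rho was -0.90 (exact permutation p = 0.00456, adjusted p = 0.274) and r -0.68. With Myc, Ghr had an r of 0.76, Igfbp2 one of 0.74 and Igf1 one of -0.76 (adjusted p = 0.379 for each by the exact permutation test). Without Myc-labelled replicate 3 and control replicate 4 these were 0.47, 0.49 and -0.24. With the stellate markers r was 0.69 for Ghr, 0.72 for Igfbp2 and -0.74 for Igf1 (adjusted p of 0.379 or more by the exact permutation test). Whether cell content plays a part in the differences between the groups was not tested.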

How the data were processed

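RNA-seq of 8 livers (4 per group) was analysed. Per the labels' protocols, total RNA was extracted with TRIzol and made into mRNA libraries, and the submitters' processing notes name HISAT2, StringTie and the build mm10, without versions. TPM, FPKM and coverage per gene were deposited by the authors, per the file headers. TPM sums to 1000000 in each library. Coverage is a signal not scaled for depth. No counts were used, so no counting interval is given. Aligned bases were derived from the modal ratio of coverage to FPKM, which assumes that StringTie normalizes by all aligned bases. Rows that repeat a gene ID, 10 to 15 in a library, were summed.

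Differences were tested on log2(TPM + 1), with a pseudocount of 1, by limma 3.58.1 in R 4.3.3 with the trend and robust options, over the 13055 genes averaging 1 TPM or more. Tests were two-sided, adjusted by Benjamini-Hochberg, with a threshold of 0.05. The pipeline was tested on simulated data. Correlations and their permutation tests were computed with numpy 2.4.6, with ranks from scipy 1.17.1, pandas 2.3.3 and Python 3.11.15. The 10 genes, the gene lists and the tests were chosen with earlier results of these data known. Named genes are the 10, Myc and Xist, from each pathway list the 3 most abundant and the 2 with the smallest unadjusted p, and the 5 most and 3 least similar to Igf1, Igfbp1 and Socs2. The rule also takes genes of marker lists, which are given by sums and counts, apart from Alb, Spp1 and Mmp9. The values of 2 genes that the rule takes are not reported here.

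Alternatives were pseudocounts of 0.1 and 5, no filter and a mean of 5 TPM, median-of-ratios and quantile scaling, FPKM or scaled coverage in place of TPM, limma without trend, array weights, a replicate block, an Xist covariate, and each library left out. Scaled coverage and the correlations on residuals after Xist were chosen after seeing the data.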

Additional observations from a re-analysis of the deposited data

Results flagged for a closer look

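In 4 of the 20 groups examined (10 genes in 2 groups of 4 libraries), 1 library lay far from the other 3 by Dixon's criterion, where chance flags about 1 in 20 groups.

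Ghr was 38.6 TPM in Myc-labelled replicate 3, the lowest of its group, while the other 3 Myc-labelled livers lay between 78.3 and 84.2 TPM. Among the controls Ghr was 51.5 TPM in replicate 2, with the other 3 between 73.1 and 75.0 TPM. Both low livers were also the lowest of their groups for Igfbp2, at 201 TPM in Myc-labelled replicate 3 and 303 TPM in control replicate 2.

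Control replicate 1 was highest of its group for the neighbouring genes Igfbp1 and Igfbp3. Igfbp1 was 1307 TPM there, with the other 3 controls between 268 and 278 TPM, and Igfbp3 was 30.8 TPM, with the others between 11.4 and 12.8 TPM. Over the 8 libraries the 2 genes did not move together, with an r of 0.10 and a rho of -0.07.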

How the results depend on the processing

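No gene of the 10 passed an adjusted p of 0.05 under any alternative run (lowest limma adjusted p 0.897), and Igfals, Igfbp1, Igfbp3, Igfbp4, Stat5a and Stat5b kept the sign of their difference under each that gave a value. Over all genes 0 were higher and 0 lower in each alternative except array weights, with 0 higher and 1 lower (Gm43305, adjusted limma p 0.0469, named after its value was seen). Leaving out 1 library at a time, the unadjusted limma count ranged from 89 to 569 higher and from 48 to 187 lower, and the count of 569 came without Myc-labelled replicate 3. The median over all genes ranged from -0.04 without Myc-labelled replicate 1 to 0.11 without Myc-labelled replicate 3. Stat5a has no value at a mean of at least 5 TPM, since its own mean lies below that.

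The log2 difference of Ghr was 0.014 with FPKM, 0.055 with scaled coverage, 0.12 with array weights and 0.026 with the Xist covariate, and -0.14 to 0.24 with 1 library left out. Igf1 was -0.0055 with the Xist covariate and -0.16 to 0.29 with 1 library left out. Igfbp2 was 0.19 with array weights and -0.45 to 0.27 with 1 library left out. Socs2 was 0.62 with array weights, 0.060 with the Xist covariate and -0.55 to 0.17 with 1 library left out. Array weights gave Myc-labelled replicate 2 a weight of 3.32 and Myc-labelled replicate 3 one of 0.42. With array weights Stat5a was 0.0004 and Igfbp4 -0.10. The causes were not tested. The median of the male-biased list ranged from -0.28 to 0.29 over the alternatives and that of the female-biased list from -1.06 to -0.0005. The share of Igfbp1 among the 4 binding protein genes was 74.6% in Myc-labelled and 57.2% in control livers on scaled coverage.

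Among the named pairs r changed sign without the 2 farthest libraries for Ghr with Igfbp2 (-0.49), Igf1 with Igfbp1 (0.62), Igf1 with Igfbp2 (0.10), Igf1 with Igfbp3 (0.34) and Igfbp3 with Stat5a (0.26). Igf1 with Igfals was 0.21 with median-of-ratios scaling, 0.10 on residuals after Xist and -0.19 to 0.046 with 1 library left out. Igf1 with Igfbp1 was 0.022 with FPKM, 0.025 with median-of-ratios scaling and -0.14 to 0.023 with 1 library left out. None of the named pairs passed an adjusted p of 0.05 in any alternative (lowest 0.219).

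Libraries of the same replicate number did not deviate together (correlations of their deviations 0.128, -0.0579, 0.0652 and 0.0704), and 1 of 8 libraries correlated best with its own number. With a replicate block 0 genes were higher and 0 lower, and the log2 difference of Igfbp3 stayed at -0.54 with an unadjusted limma p of 0.0144 and an adjusted p of 1.0. With 4 libraries per group and no counts, 7 of the 10 genes had 95% intervals wider than the median gene, whose half-width was 0.47 log2 units.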

Other observations

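Irs2, the insulin receptor substrate that fasting induces in the liver, was looked at after its values were seen, as were the other genes named in this section. It stood at 10.96, 6.89, 4.73 and 12.9 TPM in Myc-labelled livers and at 11.98, 6.48, 6.65 and 5.43 TPM in control livers. Its highest livers in each group, Myc-labelled replicate 4 and control replicate 1, were those of Igfbp1 and G6pc, and its log2 difference was 0.16 (limma adjusted p = 1.0). Trib3, a pseudokinase gene on the fasting list, also had control replicate 1 as its highest control, at 15.1, 7.92, 5.71 and 14.8 TPM in Myc-labelled livers and 13.4, 7.60, 9.36 and 9.53 TPM in control livers. Irs1, the related substrate, did not have these livers highest, at 3.16, 3.33, 2.65 and 2.01 TPM in Myc-labelled livers and 1.61, 1.69, 2.88 and 2.18 TPM in control livers.

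Genes of the receptors differed in level. Igf1r, the IGF1 receptor, lay between 0.44 and 1.1 TPM in Myc-labelled livers and between 0.49 and 0.77 TPM in control livers. Insr, the insulin receptor, lay between 18.1 and 23.6 TPM in Myc-labelled livers and between 19.0 and 30.2 TPM in control livers. Igf2r, the receptor that clears IGF2, lay between 5.13 and 9.92 TPM in Myc-labelled livers and between 3.11 and 11.7 TPM in control livers. Igf2, the second IGF ligand gene, was at 0 in 7 of 8 libraries and at 0.0489 TPM in Myc-labelled replicate 2.

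Extremes of the 10 axis genes were uneven over the livers. Myc-labelled replicate 4 held the highest value of 4 genes and the lowest of 3, control replicate 1 the highest of 3 and the lowest of 1, and Myc-labelled replicate 2 and control replicate 3 held none.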
